A study of Mus musculus with 4 samples.

Results

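Peaks of open chromatin that differed between *Smyd1-KO* and wild type (WT) embryonic mouse hearts were placed at 6 genes, the 5 members of the SMYD family (*Smyd1*, *Smyd2*, *Smyd3*, *Smyd4* and *Smyd5*) and *Naca*, of 21938 protein-coding genes in the annotation. The genes were taken by name, as those that encode the deleted protein, its closest relatives and its partner, and the rule used no measured value, although earlier results of these data were known when it was made. ATAC-seq, which marks DNA that the Tn5 transposase can reach, was run on hearts at E9.5 (embryonic day 9.5), with 2 *Smyd1-KO* and 2 WT libraries, each from 40000 viable cells of 4 pooled hearts. *Smyd1-KO* embryos carried a conventional null allele, so SMYD1 was absent from every cell of the embryo, and WT embryos were the controls. The exons that the allele removes are not given in the sources used here. The study used embryos of both sexes, the labels give no sex for single pools, and no treatment is given for either genotype.

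The data were 2 deposited lists of peaks, each peak 149 bp wide. One holds 25745 peaks with at least 2-fold more signal in *Smyd1-KO* hearts, called gained peaks here. The other holds 106 peaks with at least 2-fold more signal in WT hearts, called lost peaks. Each peak has 1 score, so no score has a replicate error and no test over libraries was possible. The files have no header, and the score was taken here as the authors' tag signal pooled over the libraries of a genotype. On this reading the score of a gained peak is its level in *Smyd1-KO* hearts and not the size of its change. Peaks that changed less than 2-fold are in neither list, and a gene without a gained peak may still be open in both genotypes.

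SMYD proteins are lysine methyltransferases in which a MYND zinc finger, a protein-binding module, splits the catalytic SET domain. SMYD1 is made in heart and skeletal muscle, methylates histone H3 at lysine 4 in vitro, recruits histone deacetylases and is needed for growth of the right ventricle and for assembly of sarcomeres. SMYD2 methylates histone H3 and the tumour suppressor p53. SMYD3 methylates the kinase MAP3K2 and histone tails, and SMYD5 has been linked to methylation of histone H4 and of a ribosomal protein. SMYD4 is the least studied of the family. *Naca* encodes the alpha subunit of the nascent polypeptide-associated complex, which binds new proteins at the ribosome, and muscle splices in 1 very long exon to make skNAC, the form that binds the MYND domain of SMYD1.

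The sequences that show how these genes differ are given first, in mm10 and on the transcribed strand of each gene. Capitals mark every match to a searched motif, and the letters of the motifs stand with the results, except those of CTCF and MEF2, which are given by name alone. The *Smyd1* promoter and its intronic gained peak carry few CpG dinucleotides, in contrast to the gained peak at the neighbouring gene *Krcc1* and to those at the *Smyd2*, *Smyd4* and *Smyd5* starts. For these last 3 peaks the stretch outside annotated exons is shown.
*Smyd1* promoter, the 250 bases before the RefSeq start, chr6:71262282-71262531, minus strand: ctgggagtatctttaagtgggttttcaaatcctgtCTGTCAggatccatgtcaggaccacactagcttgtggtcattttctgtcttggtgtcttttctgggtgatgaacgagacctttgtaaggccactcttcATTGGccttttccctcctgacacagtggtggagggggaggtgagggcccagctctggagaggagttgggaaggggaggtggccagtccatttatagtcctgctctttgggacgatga
*Smyd1* intron 4 peak, chr6:71227257-71227405, minus strand: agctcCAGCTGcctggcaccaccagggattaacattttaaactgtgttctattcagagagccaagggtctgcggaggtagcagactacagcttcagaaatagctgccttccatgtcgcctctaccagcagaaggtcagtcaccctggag
*Smyd1* upstream peak beside *Krcc1*, chr6:71271482-71271630, minus strand: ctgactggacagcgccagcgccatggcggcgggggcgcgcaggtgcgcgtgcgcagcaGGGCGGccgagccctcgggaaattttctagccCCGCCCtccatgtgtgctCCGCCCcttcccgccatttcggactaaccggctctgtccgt
*Smyd2* start, chr1:189922364-189922436, minus strand: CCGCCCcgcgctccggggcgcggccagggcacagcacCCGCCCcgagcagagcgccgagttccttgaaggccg
*Smyd4* start, chr11:75348384-75348432, plus strand: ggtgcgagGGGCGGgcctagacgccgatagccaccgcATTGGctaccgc
*Smyd5* start, chr6:85431865-85431975, plus strand: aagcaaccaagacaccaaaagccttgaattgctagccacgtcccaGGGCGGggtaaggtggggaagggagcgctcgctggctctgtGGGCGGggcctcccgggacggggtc
Of the peaks inside introns of the other SMYD genes, the 4 shown next hold the only matches to the CTCF motif among the 14 gained peaks of the 6 genes.
*Smyd2* intron 7 peak, chr1:189887616-189887764, minus strand: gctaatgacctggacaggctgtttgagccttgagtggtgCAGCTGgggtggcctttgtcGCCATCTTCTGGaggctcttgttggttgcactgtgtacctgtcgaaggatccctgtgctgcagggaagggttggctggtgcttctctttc
*Smyd3* intron 11 peak, chr1:178960344-178960492, minus strand: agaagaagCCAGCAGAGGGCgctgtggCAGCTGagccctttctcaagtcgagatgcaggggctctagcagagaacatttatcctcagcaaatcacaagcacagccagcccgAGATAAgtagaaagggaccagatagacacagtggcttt
*Smyd3* intron 1 peak, chr1:179477147-179477295, minus strand: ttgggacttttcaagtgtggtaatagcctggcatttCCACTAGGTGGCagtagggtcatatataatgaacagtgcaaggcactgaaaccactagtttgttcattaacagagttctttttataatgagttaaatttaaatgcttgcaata
*Smyd4* intron 8 peak, chr11:75402306-75402454, plus strand: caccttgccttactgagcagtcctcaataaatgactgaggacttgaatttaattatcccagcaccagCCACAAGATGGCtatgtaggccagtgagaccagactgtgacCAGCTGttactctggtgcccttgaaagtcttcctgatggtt

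A peak was assigned to a gene when it overlapped the gene body or when its nearer edge lay within 10 kb of any annotated transcription start site (TSS) of the gene. By this rule all 6 genes had at least 1 gained peak (6 of 6, or 100%, 95% exact Clopper-Pearson interval 54.1% to 100%). Of all protein-coding genes, 62.6% had one, so the share at these genes lies above the background but the interval includes it. None of the 6 genes had a lost peak (0 of 6, upper limit 45.9%), and among all protein-coding genes only 0.155% had one. Against so low a background, 0 of 6 says little about these genes. The intervals cover counting error over genes only.

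The 6 genes differed in where their gained peaks lay. *Smyd2*, *Smyd4*, *Smyd5* and *Naca* had a gained peak within 3 kb of a TSS (4 of 6, or 66.7%, interval 22.3% to 95.7%), against 51.2% of all protein-coding genes. *Smyd1* and *Smyd3* had none there. A gained peak covered a TSS of *Smyd2* and of *Smyd5* (2 of 6, or 33.3%, interval 4.33% to 77.7%), against 27.8% of all protein-coding genes. Both shares are close to the background. The median was 2 gained peaks per gene, against 1 over all protein-coding genes. Neither this median nor the 6 of 6 above takes gene length into account. *Smyd1*, *Smyd2*, *Smyd3* and *Smyd4* were longer than 89.8%, 73.3%, 99.2% and 79.7% of protein-coding genes, *Smyd5* and *Naca* than 44.9% and 42.3%. Per 100 kb of gene body the counts were 1.85, 4.78, 0.883, 1.75, 6.92 and 0 in that order, against 1.52 over all protein-coding gene bodies. The genes together held 14, of which 8 lay in an intron of the main transcript, 3 upstream of it, 1 downstream and 2 across its first exon. Of the 14 peaks, 11 were nearest to a TSS of the gene itself and 3 to a TSS of another gene.

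**Figure D1:**
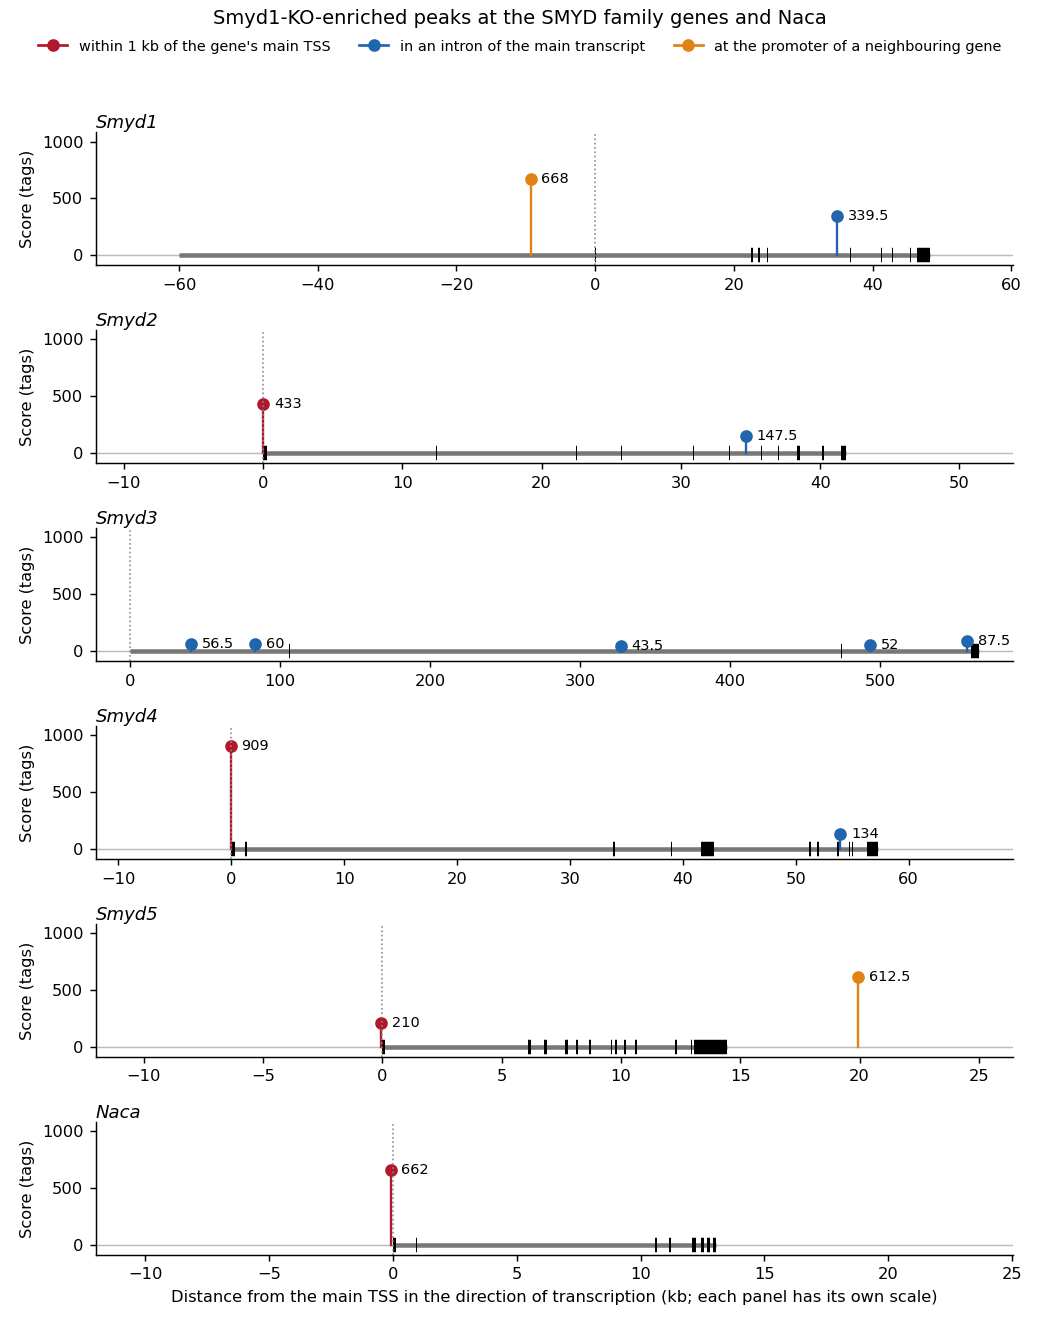
Gained peaks at the 6 genes, drawn by distance from the TSS of the main transcript in the direction of transcription (x axis, kb, scaled per panel) and by score (y axis, pooled tag signal in *Smyd1-KO* hearts). Grey bars are gene bodies, black blocks are exons of the main transcript and dotted lines mark its TSS. *Smyd2*, *Smyd4*, *Smyd5* and *Naca* have a peak at the start, *Smyd3* has 5 low intronic peaks, and the higher *Smyd1* peak (668) lies 9229 bp upstream of the main TSS.

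*Smyd1*, the deleted gene, spans chromosome 6 from 71213940 to 71322233 on the minus strand (108.294 kb, 6 annotated transcripts). It held 2 gained peaks, neither within 3 kb of any of its 6 TSSs. The first (71227257 to 71227405) had a score of 339.5 and lay in intron 4 of 8 of the main transcript, Smyd1-202, which is intron 5 of Smyd1-201. It was 10383 bp from the nearest *Smyd1* TSS, that of the short transcript Smyd1-206, and no other gene had a TSS within 10 kb. Few gained peaks so far from a start scored as high. Its score lay at percentile 96.8 of the 7850 gained peaks beyond 10 kb of a TSS, whose median was 81 (quartiles 55 and 130.5).

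The second *Smyd1* peak (71271482 to 71271630) had a score of 668, at percentile 89.4 of the whole list. It lay 9201 bp upstream of the TSS of Smyd1-201, but only 47 bp from the TSS of *Krcc1*, which encodes a lysine-rich coiled-coil protein, and 41 bp from that of the microRNA gene *Mir8112*. The predicted gene *Gm44321* had a TSS 4864 bp away. The peak was inside the *Smyd1* gene body only through intron 1 of Smyd1-203, a long GENCODE transcript that starts at 71322233. The RefSeq curated model of *Smyd1* starts at 71262281, and under it the peak is an upstream one within the 10 kb limit. A peak at the edge of a *Krcc1* promoter thus carried the higher score assigned to *Smyd1*, and the lists do not show to which gene its gain belongs.

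The bases at the 2 *Smyd1* peaks were unlike each other. The intronic peak was 52.3% GC with an observed to expected CpG ratio of 0.196, which is the count of CpG dinucleotides over that predicted from the C and G content. The peak beside *Krcc1* was 70.5% GC with a ratio of 0.977. The intronic peak held 1 match to the E-box CAGCTG, the letters bound by myogenic and other basic helix-loop-helix factors, at base 6 of the printed sequence. The peak beside *Krcc1* held 3 matches to the SP/KLF letters GGGCGG, bound by zinc finger factors of GC-rich promoters. Of all gained peaks, 12.2% held the E-box letters and 29.1% the SP/KLF letters. Beyond 10 kb of a TSS 15.4% held the E-box letters, and within 3 kb 46.9% held the SP/KLF letters.

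*Naca* spans chromosome 10 from 128035575 to 128048637 on the plus strand (13.063 kb). Its single gained peak (128035402 to 128035550) had a score of 662, at percentile 89.1 of the list and 80.6 of the 13986 that lay within 3 kb of any start. It ended 25 bp before the TSS of Naca-201, and in the RefSeq model, which starts at 128035346, its near edge lay 56 bp inside the first exon. *Prim1*, a DNA primase subunit, had a TSS 8715 bp away. The peak was 67.1% GC with a CpG ratio of 0.960 and held SP/KLF and E-box matches. No gained peak overlapped any *Naca* exon of the GENCODE models, including the 5916 bp exon 3 of Naca-202 (128039171 to 128045086) that encodes the muscle-specific part of skNAC. Both annotated starts of *Naca* lie beside the same peak (25 and 85 bp), so the peak does not separate the 2 forms.

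*Smyd2* spans chromosome 1 from 189880492 to 189922363 on the minus strand (41.872 kb). A gained peak with a score of 433 covered its main TSS (189922288 to 189922436). This score lay at percentile 50.4 of the 6527 gained peaks that covered a TSS, whose median was 430 (quartiles 286.5 and 621.5). At 79.9% GC and a CpG ratio of 1.04 it was the most GC-rich of the 14 peaks. It held SP/KLF matches, and 17.4% of its bases were masked as repeats. The second gained peak (189887616 to 189887764, score 147.5) lay in intron 7 of 11, 1238 bp inside the short noncoding transcript Smyd2-202, and held a CTCF and an E-box match. The predicted gene *Gm38245* had a TSS 6329 bp from the first peak, and the antisense gene *Gm37422* had one 7681 bp from the second.

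*Smyd3* spans chromosome 1 from 178951960 to 179518041 on the minus strand. At 566.082 kb it was longer than 99.2% of protein-coding genes, whose median length was 17.425 kb. It held 5 gained peaks, more than 97.5% of protein-coding genes, and 1.36% held more still. Per 100 kb of gene body *Smyd3* had 0.883 gained peaks, against 1.52 over all protein-coding gene bodies and 0.972 over the gap-free genome. All 5 peaks were intronic and at least 28853 bp from any *Smyd3* TSS.

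The *Smyd3* peaks were the 5 lowest of the 14. In order from the 5′ end of the gene, their scores were 56.5 and 60 in intron 1 of 11, 43.5 in intron 5, 52 in intron 10 and 87.5 in intron 11. All but the last were below the median of 81 for gained peaks beyond 10 kb of a TSS, and the last, at percentile 54.7, was close to it. The peak with 87.5 held CTCF and E-box matches and the letters AGATAA, which GATA factors bind. The intron 1 peak with 56.5 held a CTCF match, and the intron 1 peak with 60 held 2 MEIS matches (TGACAG). The intron 5 peak (179190997 to 179191145) held another match for GATA factors and the intron 10 peak (179024691 to 179024839) a MEF2 match.

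No gained peak lay near the *Smyd3* promoter. The nearest to its main TSS was 28230 bp away, at 179546264 to 179546412, with a score of 1040.5. That peak covered the TSSs of *Cnst* and *Tfb2m*, which encode consortin and a mitochondrial transcription factor, and was not assigned to *Smyd3*.

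*Smyd4* spans chromosome 11 from 75348433 to 75405705 on the plus strand (57.273 kb). Its gained peak at 75348284 to 75348432 had a score of 909, the highest of the 14 and at percentile 92.9 of TSS-covering peaks. The peak ended 1 bp before the *Smyd4* TSS and covered the TSS of *Rpa1*, which is transcribed away from it and encodes the large subunit of the single-stranded DNA binding protein RPA. The signal of the 2 starts cannot be told apart. The peak was 69.8% GC with a CpG ratio of 0.992 and held matches to the SP/KLF letters and to CCAAT, the letters of NFY. A second peak (75402306 to 75402454, score 134) lay in intron 8 of 10, 2697 bp from the start of the noncoding transcript Smyd4-202. It had no CpG dinucleotide, 14.1% masked bases, and a CTCF and an E-box match.

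*Smyd5* spans chromosome 6 from 85431989 to 85446435 on the plus strand (14.447 kb). A gained peak with a score of 210 covered its TSS (85431865 to 85432013). This was above the list median of 180.5 but at percentile 13.5 of the peaks that covered a TSS, the lowest of the 4 peaks at starts of these genes. It was 65.8% GC with a CpG ratio of 0.583 and held SP/KLF matches. The notochord homeobox gene *Noto* had a TSS 7797 bp away. The higher *Smyd5* peak (85451852 to 85452000, score 612.5) lay downstream of the gene, where it covered the TSS of *Pradc1* and lay 19 bp from that of *Cct7*, a subunit of the cytosolic chaperonin. It was assigned to *Smyd5* through the internal noncoding transcript Smyd5-205, 9279 bp away. It held none of the 10 motifs searched.

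The scores differed by place, with overlap. The 4 highest were 909, 668, 662 and 612.5, and 3 of these, all but the *Naca* peak, lay at or within 47 bp of the TSS of another protein-coding gene. The 8 intronic peaks ranged from 43.5 to 339.5, with the *Smyd1* peak the only one above the list median of 180.5. That peak (339.5) also scored above the *Smyd5* peak that covered its own TSS (210). Over the 14 peaks, 7 were at or above that median and 7 below. In the whole list the medians were 430 for peaks that covered a TSS, 365.5 within 3 kb and 81 beyond 10 kb. No peak of the 6 genes had over 10% of its 36-base words repeated elsewhere in the genome.

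**Figure D2:**
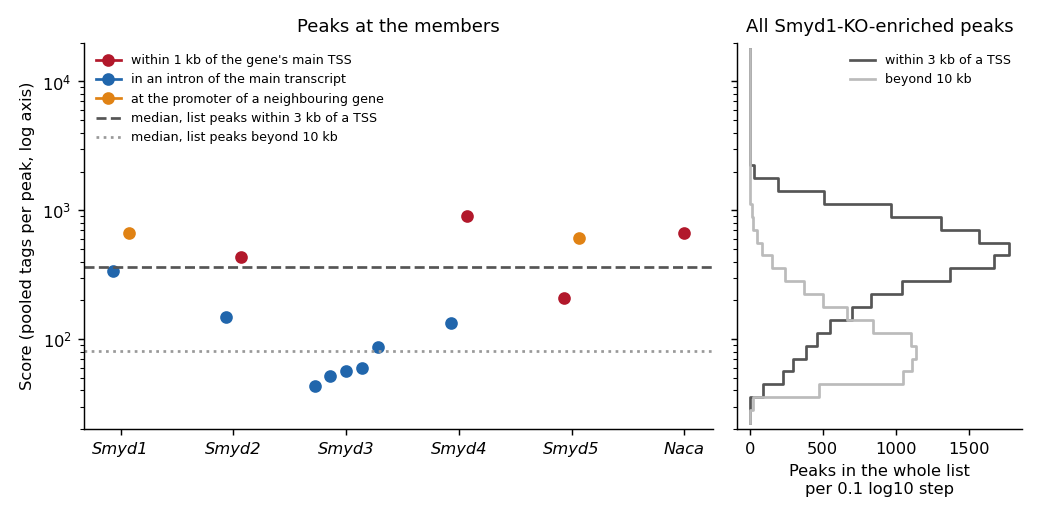
Scores of the 14 gained peaks by gene (left, y axis, pooled tag signal on a log axis) beside the scores of all gained peaks within 3 kb and beyond 10 kb of a TSS (right, number of peaks per 0.1 log10 step). Dashed and dotted lines are the medians of these 2 groups, 365.5 and 81. Peaks at starts lie between 210 and 909, and 4 of the 5 *Smyd3* peaks lie below the dotted line.

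The promoters of the 6 genes were compared by CpG content, in a window of 250 bases before to 50 after the main TSS. The *Smyd1* promoter had the lowest CpG ratio, 0.191 (percentile 22.1 of all protein-coding promoters), at 53.7% GC. *Smyd5* followed with 0.524 and 59.7% GC, *Smyd2* with 0.806 and 73.3% GC, *Smyd3* with 0.911 and 51.3% GC, *Smyd4* with 0.956 and 69.0% GC, and *Naca* was highest in these windows with 1.08 (percentile 96.5) and 64.3% GC. The order of the highest ratios rests on the annotated start. The RefSeq windows gave 0.156 for *Smyd1*, 0.468 for *Smyd5*, 0.926 for *Smyd2*, 0.946 for *Naca* (46.0% GC) and 0.956 for *Smyd4*, so *Naca* was below *Smyd4* there, and each of these 5 genes stayed in the same class of CpG ratio. *Smyd3* was not matched in that table.

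A gained peak lay within 1 kb of the main TSS in 43.5% of protein-coding promoters. The share was 4.41% for a CpG ratio under 0.2, 15.5% from 0.2 to 0.4, 45.5% from 0.4 to 0.6, 67.3% from 0.6 to 0.8 and 76.1% from 0.8 up. *Smyd1*, in the lowest class, had no such peak, and *Smyd2*, *Smyd4* and *Naca*, in the highest class, had one, as most promoters of these classes did. *Smyd5* had one in the middle class, where 45.5% did. *Smyd3* had none in the highest class, unlike most promoters there. Its window was 51.3% GC, below the median of 66.3% in that class, and 24% of its bases were masked as repeats. The CpG content moves with the gains over all promoters, and its part in the pattern of these genes was not tested.

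**Figure D3:**
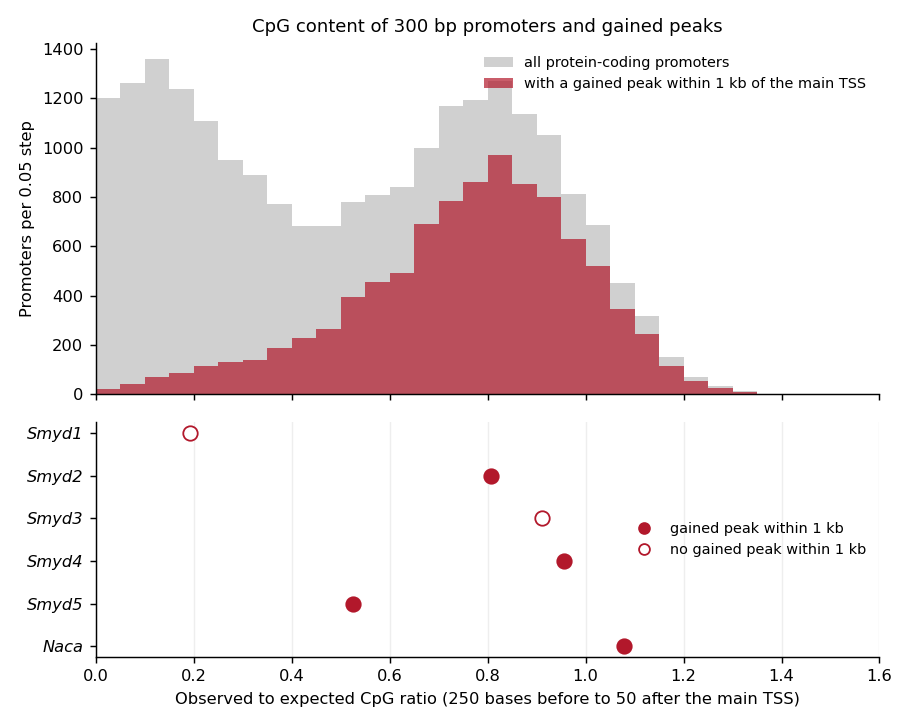
Top, number of protein-coding promoters by observed to expected CpG ratio (x axis) in steps of 0.05, all promoters in grey and those with a gained peak within 1 kb of the main TSS in red. Bottom, the ratio of each of the 6 promoters, filled where such a peak was present. *Smyd1* (0.191) lies where 4.41% of promoters had a peak and *Smyd3* (0.911) where 76.1% had one.

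Motif matches were counted on both strands of the 149 bp peaks, and a match describes the letters only. SP/KLF letters were in 5 of the 14 peaks, all at a promoter of the gene or of its neighbour. In the whole list they were in 46.9% of gained peaks within 3 kb of a TSS and in 6.74% beyond 10 kb. CTCF letters, those of the factor that bounds chromatin loops, were in 4 of the 14 peaks, in introns of *Smyd2*, *Smyd3* (2 peaks) and *Smyd4*. They were in 7.10% of all gained peaks, 4.65% within 3 kb of a TSS and 8.93% beyond 10 kb. E-box letters were in 5 of the 14 peaks, against 12.2% of all gained peaks, 9.71% within 3 kb and 15.4% beyond 10 kb. GATA letters were in 2 of the 14, both in *Smyd3*, against 8.87% of the list and 16.5% beyond 10 kb, where both peaks lie. MEIS letters (15.0% of the list), MEF2 letters (0.940%) and NFY letters (19.6%) were in 1 peak each. Beyond 10 kb, where the MEIS and MEF2 peaks lie, the shares were 22.8% and 1.68%. The letters GGAATG of TEAD factors (10.6% of the list), CCGGAAG of ETS factors (4.98%) and GCGCATGC of NRF1 (1.38%) were in none of the 14. The *Smyd1* promoter printed above holds 1 CCAAT match and 1 TGACAG match, letters found in 38.1% and 17.9% of 300 bp promoters.

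The WT list holds only 106 lost peaks over the whole genome, and 0.155% of protein-coding genes had one by the placement rule. Distances to lost peaks were not compared with those of other genes, so they are given without a reading. The lost peak nearest to *Smyd3* was 454.654 kb from the gene, with a score of 34.1 in the WT list. The nearest to *Smyd5* was 2011.02 kb away, to *Smyd2* 4248.81 kb, to *Smyd1* 10526.7 kb, to *Naca* 14379.9 kb and to *Smyd4* 59668.2 kb. At the deleted gene itself the lists therefore show neither a lost peak nor a gained peak at the promoter. Since the removed exons are not given here, the lists do not check the genotype labels.

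Genes whose products work with SMYD1 or resemble it were placed by the same rule, in 6 lists with 39 genes. Of these, 36 (92.3%) had a gained peak in the body or within 10 kb of a TSS, against 62.6% of all protein-coding genes, and 31 (79.5%) had one within 3 kb, against 51.2%. None had a lost peak, against 0.155%. These pooled shares rest on genes picked by hand with earlier results of these data known. They are not matched for promoter CpG content or gene length, and nothing is read from them. The strongest score of a gene is taken here over all gained peaks assigned to it, whether or not they lie within 3 kb. All 6 corepressor partners of SMYD1 (histone deacetylases, nuclear receptor corepressors and the remodeller *Chd4*) had a gained peak within 3 kb, with strongest scores from 274 at *Chd4* to 955 at *Hdac1*. The 4 chaperones that fold myosin, a task in which SMYD1 takes part in muscle, also all had one, with strongest scores from 395 at *Unc45b* to 725.5 at *Unc45a*. Of the 3 relatives of *Naca* in the nascent polypeptide-associated complex, *Btf3* (strongest score 301.5) and *Btf3l4* (522) had one and *Nacad* had none.

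The remaining lists of SMYD1 relatives and partners were set against the same shares of all protein-coding genes, 62.6% and, within 3 kb, 51.2%. All 8 methyltransferases of H3K4 outside the SMYD family had a gained peak, and 7 of them (87.5%, interval 47.3% to 99.7%) had one within 3 kb. Their strongest scores ranged from 403 at *Setd7* to 1177 at *Kmt2b*. Of 15 other genes with a MYND domain, 13 had a gained peak and 10 (66.7%, interval 38.4% to 88.2%) had one within 3 kb. *Pdcd2* and *Mss51* had none, and the strongest scores ranged from 192.5 at *Runx1t1* to 1113 at *Cbfa2t2*. All 3 heart genes linked to SMYD1 had a gained peak, and 2 of them (66.7%, interval 9.43% to 99.2%) had one within 3 kb. Each of these intervals for peaks within 3 kb includes 51.2%. The strongest scores of these heart genes ranged from 208.5 at *Ppargc1a* to 300.5 at *Mef2c*.

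Markers of 3 cell types of the heart, 16 genes, were also placed, and 12 had a gained peak, 8 of them within 3 kb. None had a lost peak. All 6 cardiomyocyte markers had a gained peak and 5 of them within 3 kb, with strongest scores from 280 at *Nkx2-5* to 619.5 at *Actc1*. Of 5 endothelial and endocardial markers 4 had one and 2 within 3 kb, with strongest scores from 79.5 at *Tek* to 190.5 at *Npr3*, and *Cdh5* had none. Of 5 blood markers 2 had one, *Klf1* (677.5) and *Spi1* (387), and *Gata1*, *Ptprc* and *Hbb-bh1* had none. In a bulk measure of whole hearts a change in the share of a cell type and a change within its cells cannot be told apart, and the lists hold too little to measure these shares. With 3 to 15 genes a list, most intervals include the background shares of 62.6% and 51.2%. The lists were made by hand with earlier results of these data known, so nothing is read from the intervals that do not.

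**Figure D4:**
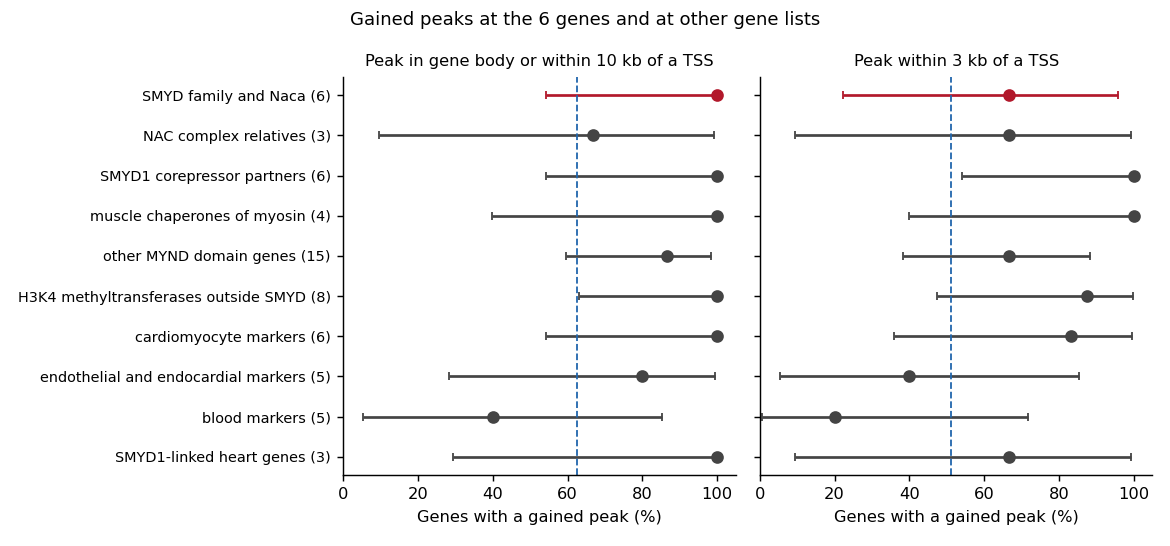
Share of genes (x axis, percent) with a gained peak in the gene body or within 10 kb of a TSS (left) and within 3 kb of a TSS (right), for the 6 genes (red), 6 lists of SMYD1 partners and relatives and 3 lists of cell type markers, number of genes in brackets. Bars are 95% exact Clopper-Pearson intervals and dashed lines are the shares over all protein-coding genes, 62.6% and 51.2%. The interval of the 6 genes includes the dashed line in both panels.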

How the data were processed

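Chromatin accessibility was measured by ATAC-seq in 2 *Smyd1-KO* and 2 WT libraries. Per the labels and the methods of the study, the authors aligned reads to mm10 with BWA-MEM, combined the libraries of a genotype, called peaks with HOMER v4.10.3, kept peaks with a 2-fold difference and annotated them with ChIPseeker v1.20.0. The deposited files have no header. The score of each peak was taken as a signal, the pooled tags in the peak as scaled by the authors, from its values and from the stated calling, and scores of the 2 lists are not comparable in size. No per-library value was used, so replicate error and the depth behind a peak are unknown, and no test was made.

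Peaks were placed on GENCODE M21 gene models (mm10, mitochondrial genes left out) with Python 3.11.15, and exact Clopper-Pearson intervals were computed with scipy 1.17.1. The placement code was tested on simulated peaks with known places. The main transcript was the best-ranked principal transcript of the annotation. GC, CpG, masked bases and motif letters were read from GRCm38.p6, and promoter sequences came from RefSeq on the same build (5 of 6 genes matched). All 6 genes were named with every peak. A neighbour was named where its TSS was within 10 kb of such a peak, and a gene of another list where it had no peak or the highest or lowest strongest score. The genes, lists and motifs were chosen with earlier results of these data known. The CpG classes and the RefSeq models were added after the data were seen. Alternatives were other TSS distances, a score cutoff, the nearest TSS only, other transcript sets and leaving out peaks near another protein-coding TSS.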

Additional observations from a re-analysis of the deposited data

How the results depend on the processing

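All 6 genes had a gained peak under 7 of the 8 alternatives tried for that count, and 5 had one when only scores at or above the list median were kept. The 4 genes with a gained peak within 3 kb and the 2 with a covered TSS stayed 4 and 2. Lost peaks remained 0 at 50 and 100 kb. The total of 14 gained peaks became 22 within 50 kb and 7 at a score at or above the median. By gene, 50 kb gave 4 for *Smyd4*, 4 for *Smyd5* and 3 for *Naca*. The score cutoff left 1 for *Smyd2*, 0 for *Smyd3* and 1 for *Smyd4*. Only the nearest TSS left 1 each for *Smyd1*, *Smyd4* and *Smyd5*. *Smyd5* had 1 within 3 kb of a TSS, 1 with TSSs of protein-coding transcripts only and 1 with RefSeq models. Without peaks near another protein-coding TSS, the strongest score fell to 339.5 for *Smyd1* and 134 for *Smyd4*, and no value could be given for *Smyd5* and *Naca*. For *Smyd5* it was 210 within 3 kb and with RefSeq models. No value could be given within 3 kb for *Smyd1* and *Smyd3*. The other 74 of 92 values were counted as close to the main ones, and none turned. Among these 74 were 3 peaks for *Smyd1* and 6 for *Smyd3* at 50 kb, and a total of 11 with only the nearest TSS. No paired analysis was possible because the deposited lists pool the libraries of a genotype, and leaving out a replicate was not possible for the same reason. With 1 pooled value per peak, differences between scores cannot be set against replicate spread.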
